A study of Homo sapiens with 8 samples.

Results

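The genes described here are 36 that encode enzymes of cholesterol synthesis, the regulators of the sterol regulatory element-binding proteins (SREBPs), and proteins of sterol uptake, transport, esterification and efflux. They were chosen by symbol from knowledge of the pathway, with earlier results of these data known, and matched to Ensembl gene IDs. All 36 have a row among the 20897 genes of the files. Of these, 35 passed the filter on low values (1 FPKM or more in at least 2 libraries) and were tested, and INSIG1 was listed at 0 in all 8 libraries and was not.

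The cells were HepG2, a line from 1 human liver carcinoma that is used as a model of hepatocytes. One group received genistein (n = 3), an isoflavone of soy that binds oestrogen receptors and inhibits tyrosine kinases, at a dose that the series design prints as 10 micromolar and the treatment protocol as 10 millimolar. Another received 50 ng/ml BMP6 (n = 2), a bone morphogenetic protein that raises hepcidin in hepatocytes, and the controls received vehicle alone (DMSO, n = 3). The 3 groups shared 1% DMSO in the medium, a change to 1% serum 24 h after plating, 8 h of equilibration and 18 h of treatment. The design calls the libraries biological replicates, and nothing states whether they came from separate cultures on separate days, so the spread between them may be partly technical.

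Cells build cholesterol from acetyl-CoA through mevalonate to farnesyl diphosphate, and from there through squalene and lanosterol. SREBP precursors are held in the endoplasmic reticulum by SCAP and INSIG proteins when sterols are plentiful. When sterols are scarce they are carried to the Golgi, cut, and sent to the nucleus, where SREBP-2 chiefly activates cholesterol genes and SREBP-1c fatty acid genes. The liver is a main site of this synthesis and of cholesterol secretion into bile.

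The libraries had FPKM totals of 1704599 to 3105197, and their sequencing depth is unknown. All 9 hepatocyte markers looked at, albumin among them, were above 0 in every library, with summed levels of 127315 to 205200 FPKM after genistein, 195754 to 221442 after BMP6 and 167397 to 208722 with DMSO. Single markers went different ways: ALB had 45780.4 to 61916 FPKM with genistein, 59633 and 143115 with BMP6 and 17949 to 40448 with DMSO. APOA1 had 3983 to 12742 FPKM with genistein, 3963 and 36158 with BMP6 and 50517 to 58896 with DMSO, and TTR 822 to 1576, 1456 and 4173, and 7162 to 8195 FPKM in the same groups. Of the leukocyte markers PTPRC and CSF1R were at 0 throughout, and the 5-gene sum, mostly LYZ, was 1242 to 1955 FPKM after genistein, 1562 to 2401 after BMP6 and 3250 to 4859 with DMSO. CD68 stood the other way, at 68.8 to 86.7 FPKM with genistein, 41.7 and 59.6 with BMP6 and 31.4 to 40.6 with DMSO, as did CD14, at 23.9 to 74.4 FPKM with genistein, 9.32 and 15.7 with BMP6 and 0 to 19.3 with DMSO. The sum of 4 bile duct markers was 526 to 1118 FPKM after genistein, 314 to 2115 after BMP6 and 1471 to 2256 with DMSO, with KRT7 at or near 0. Within it SOX9 had 143 to 238 FPKM with genistein, 104 and 285 with BMP6 and 751 to 1303 with DMSO, and EPCAM 118 to 191, 67.7 and 185, and 343 to 743 FPKM. KRT19 had 265 to 714 FPKM with genistein, 143 and 1645 with BMP6 and 209.9 to 327 with DMSO. Fibroblast markers were at 0 in all libraries for 4 of 5 genes, with sums of 0 to 2.92 FPKM after genistein, 14.3 to 19.5 after BMP6 and 1.88 to 4.91 with DMSO. Of 4 endothelial markers 3 were in the files, with sums of at most 1.71 FPKM. The part of these differences in the results below was not tested, and in bulk RNA fewer cells of a kind and less RNA per cell cannot be told apart. Tested genes at 0 numbered 2167 in genistein 2 and 1679 in DMSO 1 but 356 to 962 elsewhere, and the counts of called genes are given with and without them.

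After genistein the synthesis enzymes were low as a sum, which rests most on the abundant genes. Not every enzyme was lower, as the single genes below show. The summed level of the 20 enzymes was 1827, 1331 and 1323 FPKM in genistein libraries 1 to 3, 4698 and 8426 FPKM in BMP6 libraries 1 and 2, and 3880, 4699 and 4654 FPKM in DMSO libraries 1 to 3. Every genistein library was below every other library. As a share of the library's FPKM total, the sum was 0.0642%, 0.0564% and 0.0711% with genistein, 0.276% and 0.271% with BMP6, and 0.210%, 0.215% and 0.198% with DMSO. The shares of the 2 BMP6 libraries lay close together although their sums did not.

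**Figure D1:**
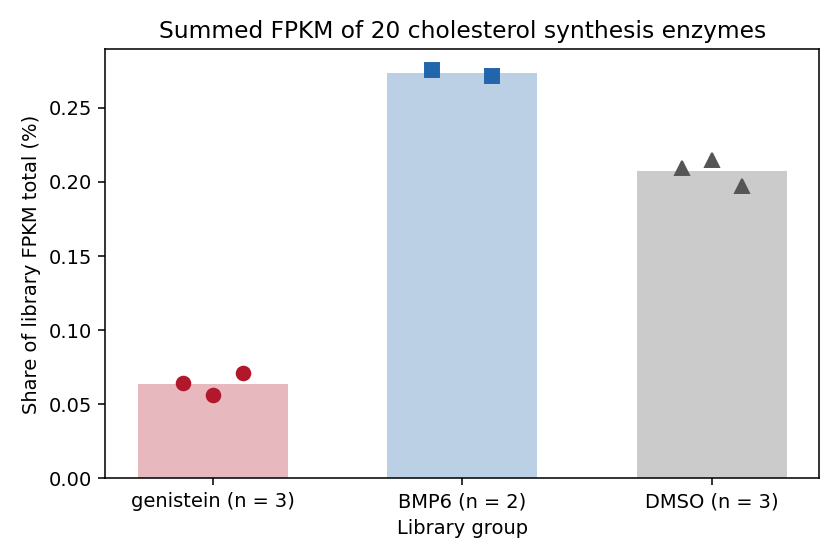
Summed FPKM of 20 cholesterol synthesis enzymes as a percentage of each library's FPKM total, for genistein, BMP6 and DMSO. Points are libraries and bars are group means. The genistein libraries sit between 0.0564% and 0.0711%, below the BMP6 (0.271% and 0.276%) and DMSO (0.198% to 0.215%) libraries.

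Against DMSO, 8 of the 35 tested genes fell after genistein and 0 rose in limma's test with Benjamini-Hochberg adjustment over all genes. The background was 12.1% of 12661 genes called, 5.96% lower and 6.11% higher. At an unadjusted p under 0.05 there were 20 lower and 3 higher, and 30.0% of all genes in either direction. In 20 genes every genistein library was below every DMSO library, and in 5 every one was above, where 20.6% and 23.3% of all tested genes did so (43.9% together). The median change was -1.15 on the log2(FPKM + 1) scale, beside 0.05 over all tested genes. Log2 changes below are on that scale, with the SE of limma.

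In the mevalonate arm, which runs from acetyl-CoA to the farnesyl and geranylgeranyl diphosphates, 2 of 8 genes fell, 0 rose, and the median log2 change was -1.42. ACAT2 (ENSG00000120437, hg18 chr6:160103043-160120048), the cytosolic thiolase that joins acetyl-CoA units at the entry of the pathway, had 112, 60.9 and 99.2 FPKM with genistein, 657 and 1080.1 FPKM with BMP6, and 333, 399 and 371 FPKM with DMSO. The 3 groups did not overlap, with genistein lowest and BMP6 highest. ACAT2 was 4.14-fold lower after genistein than with DMSO (log2 change -2.05 ± 0.34, limma adjusted p = 0.0117). HMGCS1 (ENSG00000112972, hg18 chr5:43325250-43349352), the synthase of the next step, had 67.8, 50.3 and 72.8 FPKM with genistein, 255 and 321 FPKM with BMP6, and 160.2, 211 and 171 FPKM with DMSO. Its groups stood in the same order without overlap. It was 2.82-fold lower after genistein than with DMSO (log2 change -1.50 ± 0.29, limma adjusted p = 0.0177).

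The other 6 genes of the arm did not pass the test. IDI1, the isomerase of the isoprene units, averaged 34.0 ± 6.71 FPKM with genistein and 119.9 ± 31.5 FPKM with DMSO (SD, n = 3 each), a log2 change of -1.77 (limma adjusted p = 0.0538). The kinase MVK (38.3 ± 11.1 FPKM with genistein and 100.2 ± 2.93 FPKM with DMSO), the decarboxylase MVD and the farnesyl diphosphate synthase FDPS were, like IDI1, lower in every genistein library than in any DMSO library, with limma adjusted p between 0.0538 and 0.354. FDPS has near-identical pseudogene copies, so its reads may be shared. GGPS1, which makes the geranylgeranyl diphosphate used on proteins, averaged 46.9 ± 11.9 FPKM with genistein and 50.2 ± 15.6 FPKM with DMSO (SD, n = 3 each; log2 change -0.08). PMVK, the second kinase of the arm, had 47.2, 22.4 and 28.99 FPKM with genistein, 37.4 and 91.4 FPKM with BMP6, and 0, 38.7 and 54.4 FPKM with DMSO. An exact 0 can be a failed estimate, although none of the 36 genes carried a fail status in any library. The log2 change of PMVK was 1.31 and became -0.54 without DMSO 1.

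In the arm from squalene to cholesterol 5 of 12 genes fell, 0 rose, and the median log2 change was -1.35. SQLE (ENSG00000104549), the squalene epoxidase and a rate-limiting enzyme of this arm, had 36.4, 40.8 and 36.1 FPKM with genistein, 212 and 185 FPKM with BMP6, and 738, 306 and 268 FPKM with DMSO. The genistein libraries were far below the rest, and DMSO 1 stood above DMSO 2 and 3. SQLE was 10.2-fold lower after genistein than with DMSO (log2 change -3.35 ± 0.41, limma adjusted p = 0.00494). LSS (ENSG00000160285, hg18 chr21:46432793-46473119), which closes the epoxide into lanosterol, had 24.1, 16.5 and 18.7 FPKM with genistein, 148 and 193 FPKM with BMP6, and 101, 91.8 and 141 FPKM with DMSO. The groups did not overlap, and LSS was 5.38-fold lower after genistein than with DMSO (log2 change -2.43 ± 0.31, limma adjusted p = 0.00611).

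TM7SF2 (ENSG00000149809, hg18 chr11:64635917-64640282), a sterol reductase acting after lanosterol, had 68.7, 56.3 and 39.3 FPKM with genistein, 53.5 and 283 FPKM with BMP6, and 537, 614 and 366 FPKM with DMSO. BMP6 1 lay within the genistein range, and all DMSO libraries were above both treated groups. TM7SF2 was 9.10-fold lower after genistein than with DMSO (log2 change -3.19 ± 0.58, limma adjusted p = 0.0152). LBR, an inner nuclear membrane protein with the same reductase activity, averaged 87.7 ± 21.2 FPKM with genistein and 53.8 ± 14.9 FPKM with DMSO (SD, n = 3 each). Its genistein libraries were all above the DMSO libraries, but the change did not pass the test (log2 change 0.70, limma adjusted p = 0.305). MSMO1 (ENSG00000052802, hg18 chr4:166468268-166483757) acts in the removal of methyl groups after lanosterol. It had 51.5, 44.6 and 64.1 FPKM with genistein, 499 and 406 FPKM with BMP6, and 109.8, 267 and 260.2 FPKM with DMSO. Its groups did not overlap, with DMSO 1 the lowest DMSO library, and it was 3.68-fold lower after genistein than with DMSO (log2 change -1.88 ± 0.40, limma adjusted p = 0.0237).

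DHCR7 (ENSG00000172893, hg18 chr11:70823105-70837125), the reductase of the last step of one branch, had 125, 116 and 97.2 FPKM with genistein, 348 and 551 FPKM with BMP6, and 359.9, 249.6 and 324 FPKM with DMSO. The genistein libraries were the lowest, and the BMP6 and DMSO libraries overlapped. It was 2.73-fold lower after genistein than with DMSO (log2 change -1.45 ± 0.31, limma adjusted p = 0.0242). HSD17B7 (ENSG00000132196, hg18 chr1:161027120-161049231), the ketone reductase of the demethylation complex, had 12.4, 12.5 and 13.1 FPKM with genistein, 104 and 67.0 FPKM with BMP6, and 23.0, 32.2 and 42.0 FPKM with DMSO. Its groups did not overlap, although against DMSO it missed the threshold (log2 change -1.25 ± 0.35, limma adjusted p = 0.0555), and a near-identical pseudogene may share its reads. The squalene synthase FDFT1 (216 ± 75.4 FPKM with genistein and 596 ± 164 FPKM with DMSO), the lanosterol demethylase CYP51A1, the isomerase EBP and the desaturase SC5D were below every DMSO library in every genistein library without passing the test (limma adjusted p between 0.0614 and 0.163). NSDHL, a decarboxylase of the demethylation complex, averaged 64.5 ± 16.9 FPKM with genistein and 88.9 ± 44.9 FPKM with DMSO, with overlap (SD, n = 3 each).

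The calls for SQLE and LSS were kept in each of 18 alternative fits. TM7SF2, ACAT2, HMGCS1, MSMO1, DHCR7 and ABCG8, the efflux pump described below, lost the threshold when 1 library was left out, at limma adjusted p of at most 0.0702, 0.0632, 0.0800, 0.0967, 0.112 and 0.0778, while keeping their direction. Without DMSO 2, DMSO 3, genistein 1, genistein 2 or genistein 3, the lower calls over all genes fell from 754 to 120, 301, 401, 304 and 159. In the same fits, in that order, the 8 lower genes described here became 2, 4, 4, 3 and 3. They became 16 without BMP6 1 or without BMP6 2, fits in which the genes called over all rose too, to 2660 and 2671, against 1527 in the fit of 8 libraries. Without DMSO 1 there were 8, with 599 of all genes lower. With DMSO 1 and genistein 2 both left out there were 3 (LSS, MSMO1 and SQLE), with 270 of all genes lower.

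**Figure D2:**
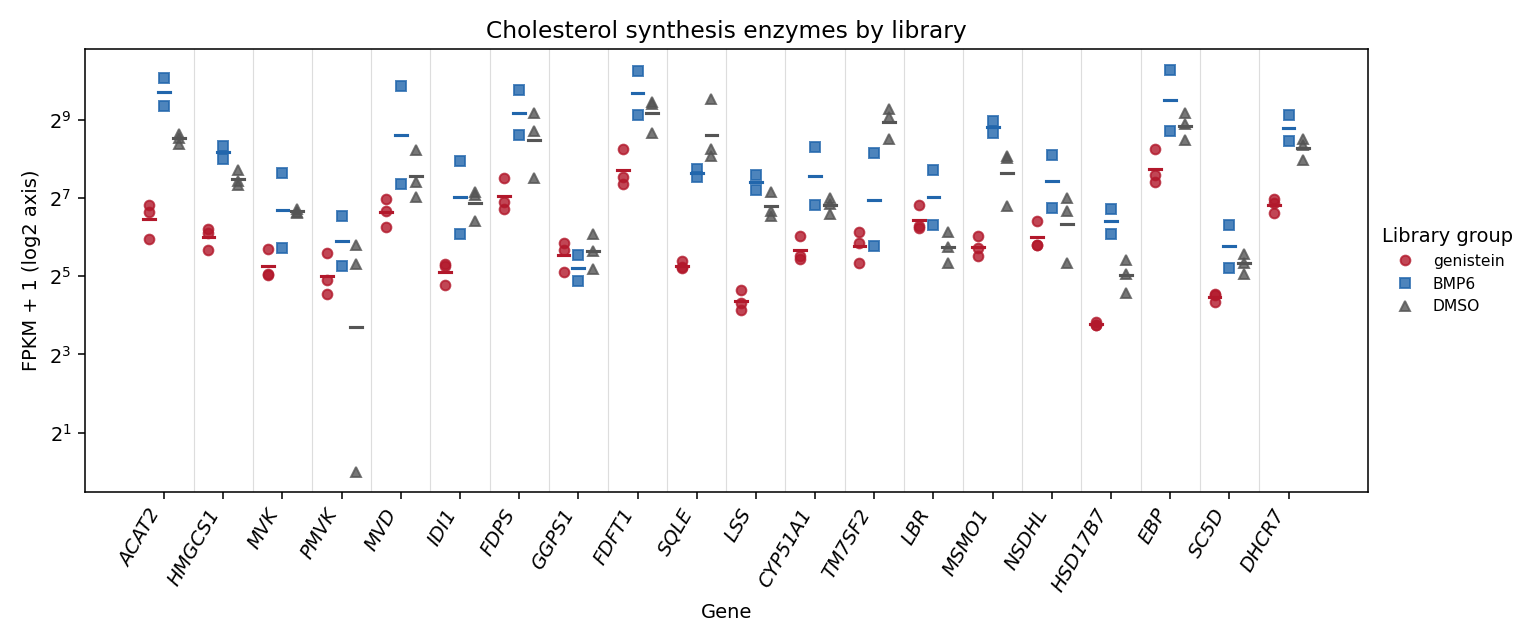
FPKM + 1 on a log2 axis for the 20 cholesterol synthesis enzymes, in pathway order, with genistein, BMP6 and DMSO libraries from left to right for each gene. Points are libraries and bars are means on the log scale. SQLE, at 36.1 to 40.8 FPKM with genistein against 268 to 738 FPKM with DMSO, shows a wide gap, and GGPS1, PMVK and NSDHL show overlap.

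The promoters of the 5 synthesis enzymes that fell against DMSO and had a matched promoter are shown. That of SREBF2 is shown because, of the 31 matched promoters, only it holds the sterol regulatory element searched for. All are the 250 bases before the RefSeq gene start (build GRCh38.p14), written 5′ to 3′ on the strand of the gene. Capitals mark CCAAT boxes (CCAAT, or ATTGG on the other strand) and, in SREBF2, the element. CCAAT boxes are bound by NF-Y, a known partner of SREBPs. The windows are chr5:43313413-43313662 (minus strand) for HMGCS1, chr21:46228775-46229024 (minus) for LSS, chr4:165327419-165327668 (plus) for MSMO1, chr11:71448394-71448643 (minus) for DHCR7, chr11:65111622-65111871 (plus) for TM7SF2 and chr22:41832855-41833104 (plus) for SREBF2.
HMGCS1: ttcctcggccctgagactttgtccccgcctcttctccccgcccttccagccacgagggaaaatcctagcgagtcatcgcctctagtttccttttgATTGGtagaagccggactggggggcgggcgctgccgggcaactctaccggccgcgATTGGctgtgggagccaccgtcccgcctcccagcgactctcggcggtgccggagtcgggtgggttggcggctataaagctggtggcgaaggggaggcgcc
LSS: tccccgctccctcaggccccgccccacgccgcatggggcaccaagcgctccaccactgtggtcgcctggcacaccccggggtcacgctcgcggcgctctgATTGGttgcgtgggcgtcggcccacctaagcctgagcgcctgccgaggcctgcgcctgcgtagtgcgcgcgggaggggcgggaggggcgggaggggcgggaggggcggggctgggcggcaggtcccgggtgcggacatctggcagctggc
MSMO1: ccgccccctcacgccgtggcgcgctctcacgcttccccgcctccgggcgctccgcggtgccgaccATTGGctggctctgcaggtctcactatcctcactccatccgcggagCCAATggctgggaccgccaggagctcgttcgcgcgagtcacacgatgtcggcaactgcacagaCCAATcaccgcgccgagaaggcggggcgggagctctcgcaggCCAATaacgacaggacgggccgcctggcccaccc
DHCR7: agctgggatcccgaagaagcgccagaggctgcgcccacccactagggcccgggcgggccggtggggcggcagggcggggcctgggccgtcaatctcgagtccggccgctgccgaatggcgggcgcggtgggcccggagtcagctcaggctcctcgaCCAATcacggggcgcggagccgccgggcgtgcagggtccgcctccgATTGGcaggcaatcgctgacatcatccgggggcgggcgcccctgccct
TM7SF2: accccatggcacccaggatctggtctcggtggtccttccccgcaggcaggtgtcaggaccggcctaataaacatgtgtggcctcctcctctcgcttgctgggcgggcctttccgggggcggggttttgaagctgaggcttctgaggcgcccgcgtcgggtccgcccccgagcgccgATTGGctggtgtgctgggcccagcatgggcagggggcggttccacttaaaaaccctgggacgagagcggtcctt
SREBF2: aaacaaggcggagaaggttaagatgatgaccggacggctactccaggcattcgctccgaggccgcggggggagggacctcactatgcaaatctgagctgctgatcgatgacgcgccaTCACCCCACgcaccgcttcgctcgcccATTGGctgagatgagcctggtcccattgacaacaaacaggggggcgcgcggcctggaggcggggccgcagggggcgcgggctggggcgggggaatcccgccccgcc

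MSMO1 holds 4 CCAAT boxes, HMGCS1 and DHCR7 hold 2 each, and LSS, TM7SF2 and SREBF2 hold 1 each. In windows that also take in the 50 bases after the start (300 bases, both strands searched), CCAAT was in 19 of 31 matched promoters and in 35.7% of 27305 RefSeq promoters. By group it was in 4 of 7 of the mevalonate arm, 8 of 10 of the squalene arm, 3 of 6 of SREBP control, 4 of 5 of transport and esterification and 0 of 3 of the efflux pumps. Of the 8 genes that fell, 6 had a matched promoter and 5 of those held CCAAT, while ABCG8, whose promoter is not shown, did not. The sterol regulatory element, searched as TCACNCCAC, was in 1 of 31, SREBF2 (TCACCCCAC, from 133 to 125 bases before the start), and in 1.15% of all. The Sp1 box GGGCGG was in 25 of 31 and in 44.6% of all, and the E-box CACGTG in 5 of 31 and in 7.43% of all. ACAT2, FDFT1, SQLE, SOAT2 and ABCG1 had no matched promoter. None of the searched motifs contains another, and a match describes the sequence and is not a measured binding site. Only exact letters in these windows were searched. A promoter without a match may hold another form of an element, or hold it outside the window.

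Among the genes of SREBP control, 0 of 5 tested passed after genistein, and all 5 had positive log2 changes (median 0.96). At an unadjusted p under 0.05 there were 2 higher and 0 lower. SREBF1 (ENSG00000072310, hg18 chr17:17655794-17681050), the gene of both SREBP-1 forms, had 61.7, 49.5 and 39.5 FPKM with genistein, 35.2 and 129 FPKM with BMP6, and 21.0, 15.5 and 28.7 FPKM with DMSO. All treated libraries were above all DMSO libraries. The log2 change was 1.19 ± 0.51 (limma adjusted p = 0.159), and it passed without BMP6 1 (0.0420) or without BMP6 2 (0.0441). SREBF2 (ENSG00000198911, hg18 chr22:40559052-40632319), the gene of SREBP-2, had 90.2, 81.1 and 80.6 FPKM with genistein, 135 and 171 FPKM with BMP6, and 46.7, 58.6 and 85.5 FPKM with DMSO. DMSO 3 lay within the genistein range, and the BMP6 libraries were the highest (genistein against DMSO log2 change 0.44 ± 0.31, limma adjusted p = 0.378).

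SCAP (ENSG00000114650, hg18 chr3:47430188-47492449), the escort of SREBPs to the Golgi, had 317, 214 and 228 FPKM with genistein, 96.3 and 218 FPKM with BMP6, and 71.8, 134 and 215 FPKM with DMSO. DMSO 3 and BMP6 2 lay at the low end of the genistein range, and the change did not pass (log2 change 0.96 ± 0.48, limma adjusted p = 0.216). INSIG2 (ENSG00000125629, hg18 chr2:118562520-118584066), a retention factor for SCAP, had 285, 225 and 387 FPKM with genistein, 933 and 366 FPKM with BMP6, and 77.7, 130.0 and 197 FPKM with DMSO. All treated libraries were above all DMSO libraries (genistein against DMSO log2 change 1.21 ± 0.48, limma adjusted p = 0.138). INSIG1 (ENSG00000186480), the other retention factor and itself an SREBP target, was listed at 0 in all 8 libraries, so no change could be read for it. MYLIP (ENSG00000007944, hg18 chr6:16237296-16256458), a ubiquitin ligase for lipoprotein receptors and a target of the liver X receptors (LXR), had 9.50, 12.6 and 12.3 FPKM with genistein, 3.09 and 5.32 FPKM with BMP6, and 8.98, 9.08 and 8.85 FPKM with DMSO. BMP6 was lowest and genistein highest, with no overlap, and the genistein change was small (log2 change 0.32 ± 0.37, limma adjusted p = 0.599).

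In sterol transport and esterification 0 of 6 genes passed after genistein, with a median log2 change of -0.37 (unadjusted p under 0.05: 1 higher and 2 lower). NPC1, which exports cholesterol from lysosomes, averaged 204 ± 58.1 FPKM with genistein, 106 ± 9.94 FPKM with BMP6 (n = 2) and 108 ± 25.6 FPKM with DMSO (SD, n = 3 each for genistein and DMSO). Every genistein library of NPC1 was above every other library (genistein against DMSO log2 change 0.90, limma adjusted p = 0.120). Its soluble partner NPC2 was abundant everywhere, at 732 to 1361 FPKM with genistein, 386 and 1129 FPKM with BMP6, and 444 to 1187 FPKM with DMSO. STARD4, a cytosolic sterol carrier and SREBP-2 target, was listed at 0, 0 and 13.4 FPKM with genistein, and had 94.3 and 23.3 FPKM with BMP6 and 7.79, 15.2 and 15.9 FPKM with DMSO. Genistein 3 lay within the DMSO range, and the BMP6 libraries were the highest. The genistein change of STARD4 did not pass against DMSO (log2 change -2.46 ± 1.06, limma adjusted p = 0.162), was -1.82 without genistein 2 or without genistein 1 (0.361 and 0.362) and -3.74 without genistein 3 (0.0465). SOAT2, the hepatocyte enzyme that esterifies cholesterol for lipoproteins, averaged 52.2 ± 14.8 FPKM with genistein, 38.9 ± 21.5 FPKM with BMP6 (n = 2) and 117 ± 30.9 FPKM with DMSO (SD, n = 3 each for genistein and DMSO). Both treated groups were below all DMSO libraries of SOAT2 without passing the test (limma adjusted p = 0.103 for genistein and 0.131 for BMP6). SOAT1, the more widely expressed enzyme of this kind, and NPC1L1, which takes up free cholesterol at the bile canaliculus, overlapped between genistein and DMSO.

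Of the 4 efflux pumps 1 fell after genistein and 0 rose. ABCG8 (ENSG00000143921, hg18 chr2:43919607-43959108), which forms the biliary sterol exporter with ABCG5, had 6.45, 4.97 and 5.52 FPKM with genistein, 19.9 and 17.1 FPKM with BMP6, and 17.9, 22.7 and 26.7 FPKM with DMSO. The genistein libraries were apart from the rest, and the BMP6 and DMSO libraries overlapped. ABCG8 was 3.49-fold lower after genistein than with DMSO (log2 change -1.80 ± 0.35, limma adjusted p = 0.0177). Its partner ABCG5 averaged 24.4 ± 8.52 FPKM with genistein, 32.5 ± 29.2 FPKM with BMP6 (n = 2) and 79.2 ± 23.5 FPKM with DMSO (SD, n = 3 each for genistein and DMSO; genistein against DMSO log2 change -1.67, limma adjusted p = 0.0888). ABCA1 (ENSG00000165029, hg18 chr9:106583104-106730257), which loads cholesterol onto apolipoprotein A-I, had 9.70, 9.01 and 15.7 FPKM with genistein, 45.9 and 14.4 FPKM with BMP6, and 49.3, 28.0 and 30.0 FPKM with DMSO. All genistein libraries were below all DMSO libraries, and BMP6 2 lay among the genistein libraries. The genistein change of ABCA1 missed the threshold (log2 change -1.55 ± 0.50, limma adjusted p = 0.0809) and passed it without BMP6 1 (0.0282) or without BMP6 2 (0.0265). ABCG1 was listed at 0 in all DMSO libraries and reached at most 1.91 FPKM.

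**Figure D3:**
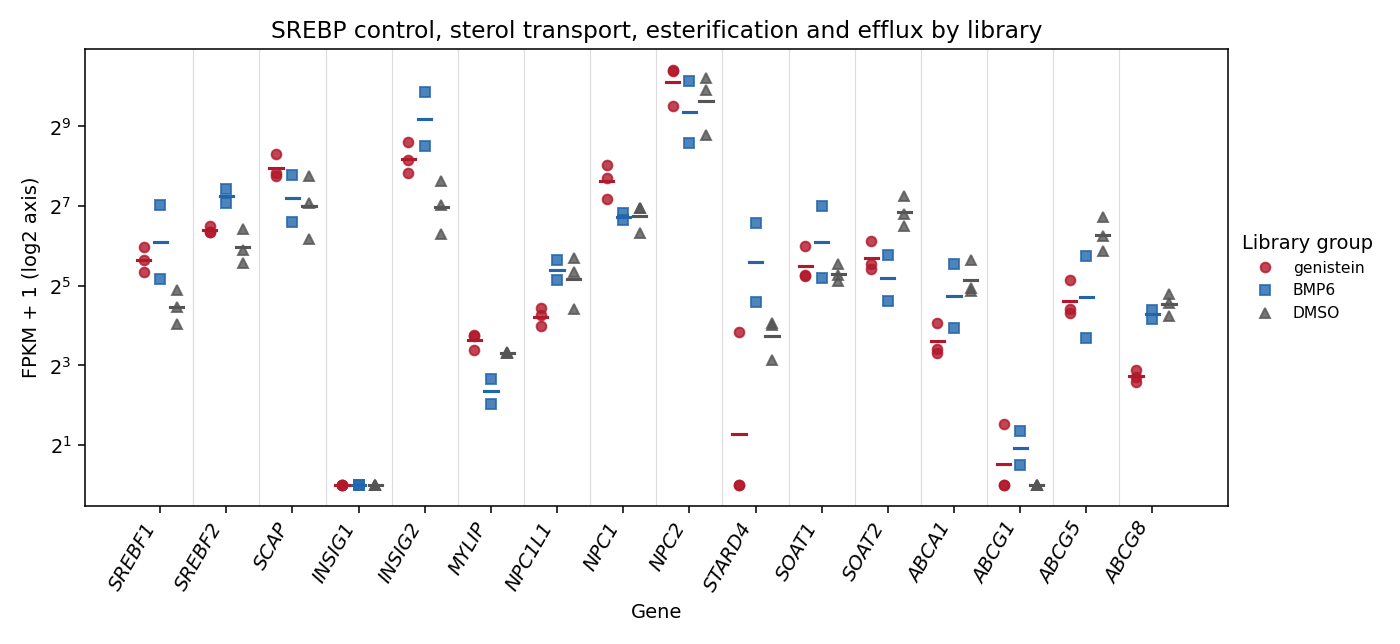
FPKM + 1 on a log2 axis for the SREBP control, sterol transport, esterification and efflux genes, with genistein, BMP6 and DMSO libraries from left to right for each gene. Points are libraries and bars are means on the log scale. SREBF1 and INSIG2 lie higher in all treated libraries than with DMSO, and ABCG8 is lowest with genistein (4.97 to 6.45 FPKM).

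Neighbouring gene lists were compared with DMSO in the same fit. Of 11 tested fatty acid genes known as SREBP-1 targets, 5 fell after genistein and 0 rose (median log2 change -0.94). The lipase gene PNPLA3 had 2.53 FPKM in genistein 1 and was listed at 0 in genistein 2 and 3, beside 22.0 to 23.6 FPKM with DMSO (log2 change -3.98 ± 0.56, limma adjusted p = 0.00723). Without genistein 2 it kept the call (-3.67, limma adjusted p = 0.0270), and with DMSO 1 and genistein 2 both left out it missed the threshold (-3.65, 0.0570). SCD, the stearoyl-CoA desaturase, averaged 158 ± 24.3 FPKM with genistein and 609.5 ± 218 FPKM with DMSO (SD, n = 3 each), a log2 change of -1.88 (limma adjusted p = 0.0174). ACLY, which supplies cytosolic acetyl-CoA, averaged 109 ± 27.4 FPKM with genistein and 296 ± 97.0 FPKM with DMSO (SD, n = 3 each), a log2 change of -1.41 (limma adjusted p = 0.0401). SCD and ACLY did not pass without DMSO 2, DMSO 3 or any genistein library, nor ACLY without DMSO 1 (limma adjusted p of at most 0.0817 for SCD and 0.131 for ACLY).

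Of 12 genes that use isoprenoids, 4 rose after genistein and 0 fell (median log2 change 0.48). RABGGTB, a subunit of the transferase that attaches geranylgeranyl groups to Rab proteins, averaged 1786 ± 179 FPKM with genistein and 377 ± 50.4 FPKM with DMSO (SD, n = 3 each), a log2 change of 2.25 (limma adjusted p = 0.00611). DHDDS, a subunit of the enzyme that makes the dolichol chain, averaged 80.6 ± 9.77 FPKM with genistein and 29.7 ± 4.87 FPKM with DMSO (SD, n = 3 each), a log2 change of 1.42 (limma adjusted p = 0.0310). FNTA, the shared subunit of the farnesyl and geranylgeranyl transferases, averaged 430.4 ± 109 FPKM with genistein and 125 ± 80.8 FPKM with DMSO (SD, n = 3 each), a log2 change of 1.97 (limma adjusted p = 0.0437). Of 11 lipoprotein receptor and sterol carrier genes 1 fell and 0 rose, LIPA, the lysosomal lipase, at 24.3, 57.2 and 35.9 FPKM with genistein and 617, 158 and 127 FPKM with DMSO (limma adjusted p = 0.0430). Of 7 LXR, RXR and oxysterol genes 0 passed in limma (unadjusted p under 0.05: 0 higher and 1 lower). DHDDS, FNTA and LIPA each lost the threshold in at least 5 of the 8 fits that left out 1 library, at limma adjusted p of at most 0.131.

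After BMP6, 11 of the 20 synthesis enzymes in BMP6 1 and 15 in BMP6 2 were above their DMSO means, and no gene passed. In DMSO libraries 1 to 3 the same count was 5, 13 and 14. In limma 0 of 35 genes rose and 0 fell, beside 0.34% of all genes higher and 0.498% lower (0.837% together), with 7 higher and 4 lower at an unadjusted p under 0.05, where 18.9% of all genes stood. Among the genes 11 were higher in both BMP6 libraries than in any DMSO library and 5 were lower (16.1% and 17.3% of all tested genes, 33.3% together). The median log2 change was 0.62, beside -0.03 over all genes, with 0.69 in the mevalonate arm, 0.64 in the squalene arm and 1.28 in SREBP control. The median depended on the BMP6 library used: it was 0.15 without BMP6 2, with 18 positive and 16 negative changes and -0.35 over all genes, and 0.84 without BMP6 1, with 0.23 over all genes. The BMP6 libraries differed from each other, with FPKM totals of 1704599 in BMP6 1 and 3105197 in BMP6 2. Of 36 genes 24 were higher in BMP6 2 and 11 in BMP6 1, and all 8 of the mevalonate arm were higher in BMP6 2. The share over all genes was not counted, so these counts are not read as particular to the list. MVD had 164 FPKM in BMP6 1 and 925 FPKM in BMP6 2, whereas CYP51A1 had 317 and 111 FPKM and LBR 209.9 and 78.9 FPKM in the same order. Over all tested genes the log2 values of the 2 BMP6 libraries correlated at 0.847 (Pearson). BMP6 1 correlated at 0.753 to 0.817 with the DMSO libraries and at 0.804 to 0.889 with the genistein libraries. For BMP6 2 these ranges were 0.815 to 0.912 and 0.85 to 0.896.

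The BMP6 changes with the smallest p were those of INSIG2 (4.61-fold higher than with DMSO, log2 change 2.21 ± 0.54, limma adjusted p = 0.102), SREBF2 (2.44-fold higher, log2 change 1.28 ± 0.35, limma adjusted p = 0.128) and SOAT2 (3.13-fold lower, log2 change -1.65 ± 0.45, limma adjusted p = 0.131). SREBF2 had 135 and 171 FPKM with BMP6, above its highest DMSO library at 85.5 FPKM. TM7SF2 and SQLE lay below every DMSO library in both BMP6 libraries, at 53.5 and 283 FPKM against 366 to 614 FPKM for TM7SF2 and at 212 and 185 FPKM against 268 to 738 FPKM for SQLE. With BMP6 2 left out, so that BMP6 1 stood alone and was assumed to vary like the other groups, 5 genes rose (CYP51A1, HSD17B7, INSIG2, LBR and SOAT1) and 3 fell (ABCG5, SOAT2 and TM7SF2) of 34 tested. In that fit 437 of all 12572 tested genes rose and 1562 fell. With BMP6 1 left out there were 0 in either direction. Under median-of-ratios scaling SREBF2 rose and SOAT2 fell (limma adjusted p = 0.0417 and 0.0335).

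**Figure D4:**
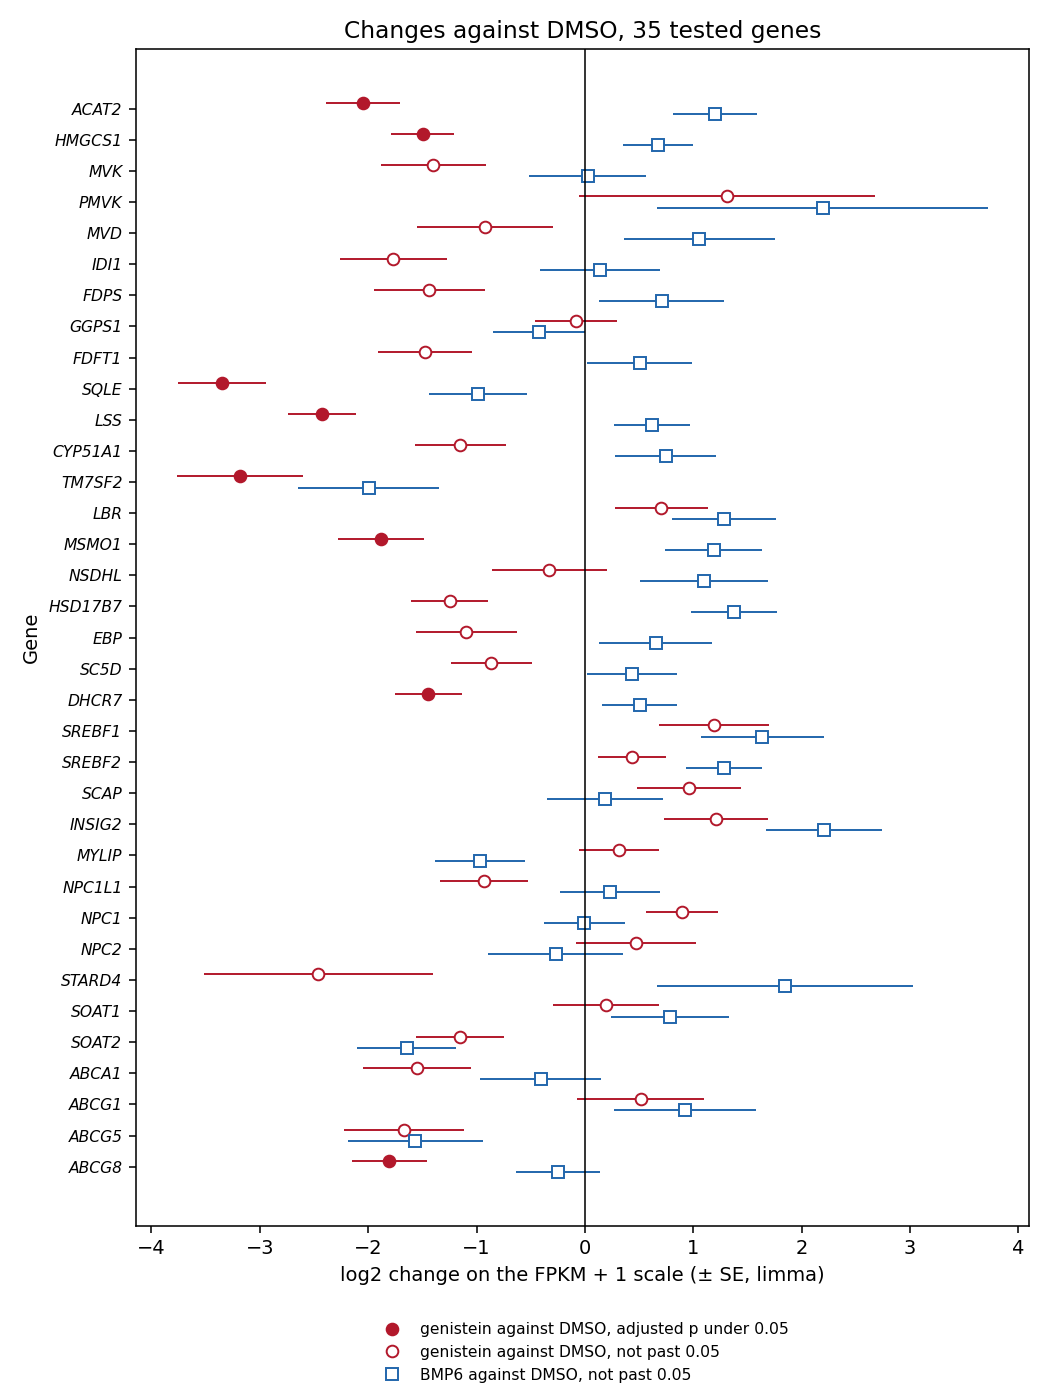
Log2 changes on the FPKM + 1 scale with their SE for the 35 tested genes, genistein against DMSO (circles) and BMP6 against DMSO (squares), which share the DMSO libraries. Filled symbols passed an adjusted p of 0.05. The 8 filled circles are all below 0, and no BMP6 change passed.

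Set directly against BMP6, genistein gave lower levels of 6 genes and higher levels of 0, beside 0.75% of all genes lower and 0.64% higher (1.39% together). At an unadjusted p under 0.05 there were 20 lower and 2 higher, beside 14.7% of all genes. The groups did not overlap for 20 lower and 2 higher genes, and for 12.6% and 16.3% of all genes (28.9% together). All 12 squalene arm genes had negative log2 changes, with 4 past the threshold, and 2 of 8 passed in the mevalonate arm. The median over the 35 genes was -1.30, beside 0.12 over all genes. ACAT2 was 9.50-fold lower with genistein than with BMP6 (log2 change -3.25 ± 0.39, limma adjusted p = 0.00899), LSS 8.27-fold (-3.05 ± 0.35, 0.00868) and MSMO1 8.38-fold (-3.07 ± 0.45, 0.0202). HSD17B7 was 6.17-fold lower (log2 change -2.63, limma adjusted p = 0.0213), HMGCS1 4.50-fold (-2.17, 0.0208) and DHCR7 3.88-fold (-1.96, 0.0384). SQLE, with the lowest p against DMSO, missed the threshold against BMP6 (log2 change -2.36 ± 0.45, limma adjusted p = 0.0516). Among the fatty acid genes 3 of 11 were lower with genistein than with BMP6: SCD, PNPLA3 and FADS2, a fatty acid desaturase (limma adjusted p = 0.0208, 0.0265 and 0.0430). These lost the threshold in 4, 6 and 7 of the 8 fits that left out 1 library, at limma adjusted p of at most 0.107, 0.110 and 0.109, with the direction kept.

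ACAT2 and LSS stayed past the threshold against BMP6 whichever library was left out (limma adjusted p of at most 0.0445 and 0.0449). In a fit of genistein and BMP6 alone neither passed (0.0746 and 0.0578), and with library weights ACAT2 passed and LSS did not (0.0484 and 0.0925). With the replicate block 0 of the 6 genes passed. Over all genes 95 were lower in the fit of 8 libraries. The 6 genes became 2 without DMSO 2, genistein 1 or genistein 2 (23, 21 and 39 of all genes lower). They became 3 without genistein 3 (21 of all), 4 without DMSO 3 (42 of all) and 7 without DMSO 1 (112 of all). With DMSO 1 and genistein 2 both left out there were 4 (ACAT2, LSS, MSMO1 and SQLE), with 60 of all genes lower.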

How the data were processed

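PolyA RNA of HepG2 cells was sequenced in 8 libraries on a Genome Analyzer II, with RNA integrity numbers above 8.5, per the labels' protocols. The authors deposited 1 FPKM value per Ensembl gene and library, per the file headers. The submitters' processing notes name Cufflinks 1.0.3, Cuffdiff, Bowtie, TopHat 1.1.0 and the hg18 build; settings and scaling are not given in the sources used here. The lowest values above 0 (1000 taken per library) had Spearman correlations of -0.094 to 0.0898 with the longest annotated transcript length. Those lengths are not from the hg18 annotation, so this cannot show whether low values step by whole reads. No counts were recovered, depth is unknown, and no counting interval was computed. No hg18 annotation was used, and coordinates are those of the files.

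Groups and replicate numbers came from the titles. The 12661 genes that reached 1 FPKM in 2 or more libraries were converted to log2(FPKM + 1), which understates changes of low genes. They were fitted over all 8 libraries with limma 3.58.1 (R 4.3.3, trended variance, 5 residual and 3.22 prior degrees of freedom), in 3 two-sided contrasts adjusted by Benjamini-Hochberg over all tested genes, with a threshold of 0.05. The code of the fit was run on simulated data with independent normal noise and no library-wide shifts. That run does not test the calls reported here. Promoter motifs were counted with Python 3.11.15 in RefSeq promoters (GRCh38.p14), where 31 of 36 genes matched.

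The genes and lists were chosen with earlier results of these data known. Every library is given for genes past the threshold in a contrast, for the SREBP control genes and ABCA1, and for PMVK and STARD4, which have values at 0; NPC1, SOAT2, LBR and other genes given by range or mean lie outside that rule and were chosen after their values were seen. Of each neighbouring list at most 3 called genes are named. A further neighbouring list, of SREBP processing, is not reported here. Alternatives were other pseudocounts, filters and scalings, a replicate block, library weights, a fit of 2 groups, each library left out, and DMSO 1 and genistein 2 both left out.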

Additional observations from a re-analysis of the deposited data

How the results depend on the processing

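Of 14 calls in the 3 comparisons, 2 (SQLE and LSS against DMSO) were kept in all 18 alternatives. The number of genes lower after genistein than with DMSO (8, with 754 of all genes lower and 773 higher) became 16 under median-of-ratios scaling, 16 under quantile normalization (1215 and 1180 of all), 21 with arrayWeights (and 4 higher; 2780 and 2603 of all), 17 in a fit of genistein and DMSO alone (and 1 higher; 1361 and 1329 of all), and 3 with DMSO 1 and genistein 2 both left out. Leaving out 1 library gave 2 to 16 lower and 0 to 1 higher. The number lower with genistein than with BMP6 (6, with 95 of all genes lower) became 10 under median-of-ratios scaling (261 of all) and 11 under quantile normalization (239 of all). It became 1 with arrayWeights (16 of all) and 1 in a fit of those groups alone (13 of all). Leaving out 1 DMSO or genistein library gave 2 to 7 (21 to 112 of all). After BMP6 (0 and 0 against DMSO), median-of-ratios scaling gave 1 higher and 1 lower, quantile normalization 1 lower, and leaving out 1 library 0 to 5 higher and 0 to 3 lower. The causes were not tested. Median-of-ratios scaling moved the median of all genes by -0.10 (genistein against DMSO) and -0.16 (genistein against BMP6) on the log2 scale and gave 927 higher and 1313 lower of all genes for genistein against DMSO.

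The labels do not say what the replicate numbers share. Deviations of same-numbered genistein and DMSO libraries correlated at -0.146, -0.065 and -0.005. Those of same-numbered BMP6 libraries correlated at -0.247 and 0.286 with genistein and at 0.055 and 0.001 with DMSO. Of unlike number, genistein 3 had 0.594 with BMP6 1 and -0.594 with BMP6 2. Deviations cancel within a group, so these values cannot show whether the numbers share a batch. With the replicate block, the genes lower after genistein numbered 3 against DMSO (LSS, SQLE and TM7SF2; 238 of all genes lower) and 0 against BMP6 (4 of all genes lower; limma adjusted p = 0.0860 for both ACAT2 and LSS).

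Some log2 changes of genes not past the threshold reversed. Against DMSO after genistein, PMVK was -0.14 with arrayWeights and -0.30 with DMSO 1 and genistein 2 both left out, and NPC2 was -0.10 in the last of these. Leaving out 1 library gave -0.54 to 2.36 for PMVK, -0.31 to 0.14 for GGPS1, -0.83 to 0.0059 for NSDHL and -0.054 to 0.32 for SOAT1. For BMP6 against DMSO, SCAP was -0.22 with DMSO 1 and genistein 2 both left out, and leaving out 1 library gave -0.40 to 0.77 for SCAP and -1.21 to 0.40 for ABCA1. For genistein against BMP6 it gave -1.37 to 0.48 for SREBF1. Depth is unknown, and values listed at 0 may be failed estimates, although none of the 36 genes carried a fail status.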
